A study of Homo sapiens with 4 samples.

Results

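The genes examined here were 10 members of the NRF2 antioxidant pathway, NFE2L2, KEAP1, MAFG, NQO1, TXNRD1, SRXN1, OSGIN1, AKR1B10, AKR1C1 and ME1, chosen by name. Each was followed over its gene body in GENCODE release 44 (hg38) with 10 kb on either side. Chromatin accessibility had been measured by Omni-ATAC-seq, in which a transposase cuts open DNA, in HepG2, a line of human hepatocellular carcinoma cells with a wild-type genotype label. There were 2 control libraries labelled untreated and 2 libraries from cells given 5 µM tazemetostat, an inhibitor of the histone methyltransferase EZH2, in DMSO for 48 h after 24 h of stabilisation, each from 50000 cells. The labels do not say whether the untreated cells received DMSO, and they describe the DNase pretreatment for tazemetostat-treated cells. Nothing in them says that replicates were separate cultures, so p-values measure the spread between these libraries, which may be technical.

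Peaks called in the 4 libraries were merged where they overlapped, which gave 80551 regions, and 46 of these touched the windows of the 10 genes. The signal is the normalised tag count, the tags in a peak per 10 M mapped tags of its library. A peak was listed if its density was at least 4 times that of the surrounding 10 kb, so a library without a peak has no value there, not a value of 0. The gene start used below is the start of the MANE Select transcript, the agreed reference transcript of each gene, and positions are given from it, with negative values upstream.

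NRF2, the product of NFE2L2, is the transcription factor that switches on antioxidant and detoxifying genes. In resting cells KEAP1, an adaptor of a CUL3 ubiquitin ligase, holds NRF2 and has it degraded, and oxidants or electrophiles release it. Freed NRF2 pairs with a small MAF protein such as MAFG and binds the antioxidant response element (ARE) near genes such as NQO1. In liver the pathway protects hepatocytes from reactive metabolites, and it is often overactive in liver tumours.

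Mapped tags ranged from 17191428 to 26564400 per library, and the groups overlapped in depth. The share of tags in peaks was 4.32% and 5.69% in the controls and 11.5% and 9.81% under tazemetostat, and the fragment length in the file headers was 200 bp in both controls and 144 bp in both tazemetostat libraries. Candidate peaks before filtering overlapped between groups, at 255453 and 454648 for control replicates 1 and 2. Tazemetostat replicates 1 and 2 had 410718 and 526165. Of its candidates, each control lost a larger share to the local filter, 77.0% for replicate 1 and 80.0% for replicate 2. The treated libraries lost 62.7% and 70.9%. How far this filter shaped the peak numbers below was not tested. The differences in tags in peaks, fragment length and filtered share cannot be told apart from the treatment and stand beside every value below. A rise named below is one on the scale of mapped tags, where the median log2 change of all regions tested was itself 0.70, and each such call was lost once the libraries were centred on their medians. Regions lay at the start of 6 of 9 hepatocyte markers in all 4 libraries, with ALB and AFP having none and FOXA2 a peak in tazemetostat replicate 2 alone, while 0 of 8 leukocyte, endothelial and fibroblast or muscle markers had a region at the start.

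The ARE was searched as TGACTCAGC on both strands. These letters contain the AP-1 motif TGACTCA and are a subset of the looser ARE core TGACNNNGC. The windows of the 10 genes held 12 TGACTCAGC sites, or 1.41 per 100 kb against 1.14 over the primary chromosomes, and 1 of the 12 lay inside a region. Over the primary chromosomes 3.32% of such sites lay inside a region. The 4 sites below are shown because they are the one inside a region and those nearest the starts of NQO1, MAFG and ME1. The site is in capitals and the build is hg38.
AKR1C1, site at -6339 bases, inside a tazemetostat-only region, chr10:4957042-4957110, minus strand: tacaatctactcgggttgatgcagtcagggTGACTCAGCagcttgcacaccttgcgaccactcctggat
NQO1, site at -451 bases, 125 bases outside the region at the start, chr16:69726977-69727045, minus strand: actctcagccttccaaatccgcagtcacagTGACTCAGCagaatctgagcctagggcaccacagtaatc
MAFG, site at 764 bases, 158 bases outside the intron region, chr17:81926937-81927005, plus strand: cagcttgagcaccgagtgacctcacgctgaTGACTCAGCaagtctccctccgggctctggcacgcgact
ME1, site at -133 bases, with no region at the start, chr6:83431150-83431218, minus strand: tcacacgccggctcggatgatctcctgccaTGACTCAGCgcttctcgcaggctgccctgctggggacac
The sites at NQO1 and MAFG thus lay just beyond the edge of a called region, and the ME1 site lay far from any. The looser core was in the central 200 bp of 9 of 46 member regions (19.6%) and of 10.2% of all regions on the primary chromosomes. AP-1 letters were there in 3 of 46 (6.52%) and 6.15%. A match of letters is a description and not evidence of binding.

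To compare how much open chromatin was called at these genes, peaks in the windows were counted. Control replicates 1 and 2 had 17 and 18 peaks, and both tazemetostat replicates had 35. The difference of 17.5 gave p = 0.33 in the exact permutation test (two-sided), the smallest that 2 against 2 libraries allow. The summed normalised tag count was 310.8 and 355.8 in the controls and 916.8 and 789.04 under tazemetostat. The covered length was 7480 and 8289 bp against 15307 and 15866 bp, and the normalised tag count per kb of peak was 41.5 and 42.9 against 59.9 and 49.7. The group means differed 2.56-fold in the sum, 1.98-fold in covered length and 1.30-fold in density, so most of the larger sum went with a larger covered length. These measures take in called peaks only, and a region without a peak adds nothing. The larger peak number thus enters both sum and length, and the density covers different regions in each library. All 4 measures lay higher in both tazemetostat libraries, as did the peak number of the whole libraries, and member peaks made up 0.0651% and 0.0518% of a control's peaks and 0.0633% and 0.0646% of a treated library's.

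**Figure D1:**
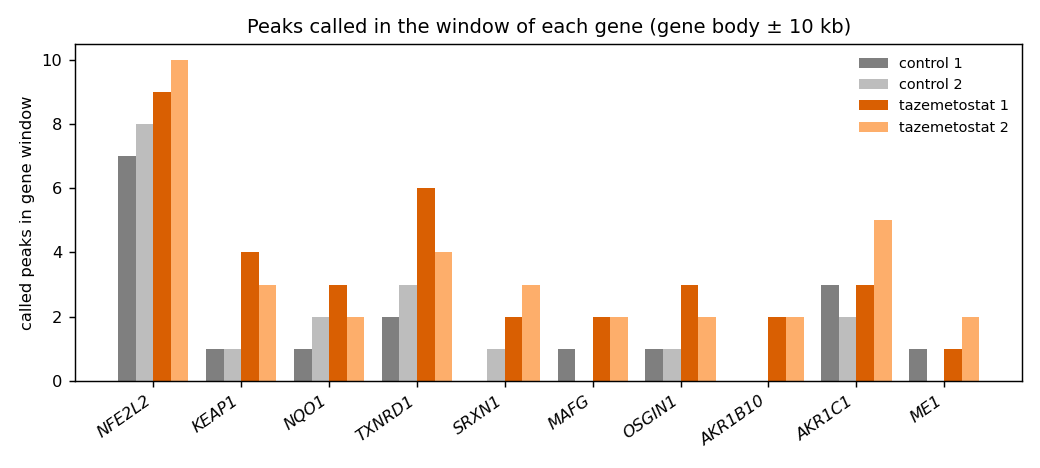
Bars give the number of called peaks (y axis) in the window of each gene (x axis), one bar per library, grey for control and orange for tazemetostat. NFE2L2 had the most peaks in every library, and AKR1B10 had 0 in both controls and 2 in both tazemetostat libraries.

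Of the 46 regions, 9 were shared by all 4 libraries, 19.6% against 20.4% of all regions. Another 8 were tazemetostat-only, with a peak in each treated library and none in a control. That is 17.4% of the member regions against 13.7% of all regions, a share near the background. Control-only regions numbered 0, against 0.449% of all regions. A further 17 were called in 1 library. For control replicates 1 and 2 these made up 2.17% and 6.52% of the member regions, against 5.93% and 6.65% of all regions. For tazemetostat replicates 1 and 2 they made up 15.2% and 13.04%, against 17.4% and 16.2%. In 11 regions both tazemetostat libraries and 1 control had a peak, and the control value was below both others in 9 of them, 81.8% against 73.2% of 10305 such regions over the genome. Control replicate 1 was the control with a peak in 6 of these 11 member regions, 13.04% of the member regions against 2.64% of all regions. Control replicate 2 was that control in the other 5, 10.9% against 10.6%. The higher share with control replicate 1 was not tested. By position, 14 of the 46 lay in promoters, 19 in introns, 3 in exons and 10 between genes.

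Member peaks sat close to the calling limit. Those with a fold over the local background under 5 made up 52.9% and 55.6% of the control peaks in the windows and 48.6% and 51.4% of the tazemetostat peaks there, against 31.3% to 36.6% of all peaks. The 16 peaks of the 8 tazemetostat-only regions had local folds from 4.09 to 13.2 with a median of 4.78 and came from 7 genes. With only peaks of at least 8-fold kept, 6 member regions were left and 0 of them were tazemetostat-only, against 13.3% of all regions at that limit, so few that the count says little about the members.

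NFE2L2, which encodes NRF2 itself, had the most regions, with 12 in its window. The one spanning its start (chr2:177264650-177265554, promoter) had normalised tag counts of 54.7 and 54.2 in the controls and 100.8 and 77.2 under tazemetostat. The controls were nearly equal and both lay below the tazemetostat libraries. Peak lengths were 799 and 831 bp against 816 and 777 bp, with local folds of 7.0 and 4.21 against 4.93 and 5.04. The log2 change was 0.69 ± 0.30 (SE), which did not pass (limma adjusted p = 0.0631) and lay at -0.014 from the median change of all regions. It passed per kb of peak (limma adjusted p = 0.00997), with a pseudocount of 5 (limma adjusted p = 0.0379) and in edgeR with header library sizes (adjusted p = 0.0153). The region had the highest tag count of the 46 in every library, and its central 200 bp, without ARE or AP-1 letters, is printed for that reason.
NFE2L2 start region, chr2:177265003-177265202, plus strand: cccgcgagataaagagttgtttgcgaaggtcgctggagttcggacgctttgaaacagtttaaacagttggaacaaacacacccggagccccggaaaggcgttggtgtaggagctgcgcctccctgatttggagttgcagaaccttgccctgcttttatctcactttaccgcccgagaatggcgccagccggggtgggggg

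A second start cluster at 1106 bp, holding 17 annotated NFE2L2 starts, read 12.8 and 17.2 in the controls and 28.7 and 20.7 under tazemetostat. Its peaks did not lengthen, being 300 and 377 bp in the controls and 300 bp in both tazemetostat libraries, so the density per kb went from 42.7 and 45.6 to 95.7 and 69.0. The change of 0.68 ± 0.31 (SE) did not pass by tag count (limma adjusted p = 0.0708) and passed per kb of peak (limma adjusted p = 0.00259). An intron region at 9792 bp had values of 12.8 and 15.1 against 20.7 and 37.6 and rose by 0.96 ± 0.32 (SE, limma adjusted p = 0.0271). Per kb of peak its change of 0.44 did not pass (limma adjusted p = 0.0988), and the peak in tazemetostat replicate 2 was 823 bp long. Its tazemetostat libraries differed more from each other than the lower of them did from the controls.

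The longest NFE2L2 transcripts begin far upstream, at a promoter shared with the divergent gene AGPS. The region there read 10.5 in control replicate 1, had no peak in control replicate 2, and read 13.1 and 21.8 under tazemetostat. An intron region at -84283 bp was tazemetostat-only, at 25.7 and 12, with local folds of 4.37 and 4.16. Single-library peaks lay on both sides of this region. They read 6.72 at -67621 bp and 6.30 at -98514 bp in control replicate 2, and 5.65 at -101291 bp in tazemetostat replicate 2.

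The largest change by tag count of the tested member regions lay at the far upstream edge of the NFE2L2 window, in an intron of AGPS at -133481 bp. Values were 11.1 and 11.8 in the controls and 29.7 and 32.0 under tazemetostat. The groups were well apart and replicates were close. The region rose by 1.35 ± 0.29 (SE, limma adjusted p = 0.00693), or 0.65 above the median change of all regions. Per kb of peak the second NFE2L2 start cluster changed more, by 0.87. On that scale the far upstream region changed by 0.71 (limma adjusted p = 0.0115), or 0.29 above the median. Peaks were 402 and 391 bp in the controls and 563 and 741 bp under tazemetostat. Its centre held an ARE core, in capitals below, and it was 1 of 9 member regions with a core there. The window rule alone ties the region to NFE2L2.
NFE2L2 far upstream region, chr2:177398109-177398308, plus strand: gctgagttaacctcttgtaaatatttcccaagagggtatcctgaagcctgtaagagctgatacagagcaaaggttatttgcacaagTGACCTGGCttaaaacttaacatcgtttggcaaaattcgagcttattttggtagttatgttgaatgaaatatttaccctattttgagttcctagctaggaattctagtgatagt

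KEAP1, the adaptor that keeps NRF2 low, had 1 peak in each control and 4 and 3 under tazemetostat. The region at its start (chr19:10502503-10503102, promoter and exon) had values of 13.4 in control replicate 1 and 27.7 and 21.5 under tazemetostat, with no peak in control replicate 2, the more deeply sequenced control. Lengths were 402, 599 and 475 bp and local folds 4.99, 4.10 and 4.70. A region over the last exon read 15.1 in control replicate 2 and 13.6 and 15.8 under tazemetostat, so the control lay between the treated libraries. A tazemetostat-only region downstream of the gene, between genes at 24270 bp, read 9.07 and 10.9. KEAP1 had 0 regions that could be tested.

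MAFG, a small MAF partner of NRF2, had 2 regions. Its intron region (chr17:81926307-81926813, at 1175 bp) was tazemetostat-only and had the highest tag counts of the 8, 42.8 (95% exact Poisson interval 34.2 to 53.0) and 44.4 (36.8 to 53.2). These intervals cover counting error only. Lengths were 454 and 468 bp and local folds 4.74 and 4.27, near the limit of 4. The tag counts were far above the lowest listed in either control, 6.40 and 5.04, but the local filter means that a control without a peak may still have had many tags. The MAFG region is shown as the strongest tazemetostat-only region; it holds neither motif in its centre, and the nearest full ARE is the site printed above.
MAFG intron region, chr17:81926461-81926660, plus strand: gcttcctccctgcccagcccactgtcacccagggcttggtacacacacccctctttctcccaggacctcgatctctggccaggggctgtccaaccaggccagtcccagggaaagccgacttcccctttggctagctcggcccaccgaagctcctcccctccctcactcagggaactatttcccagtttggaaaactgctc
The other MAFG region, in an intron of the neighbour PCYT2, read 32.6 in control replicate 1 and 34.8 and 36.5 under tazemetostat, a narrow range.

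NQO1, a quinone reductase and the standard reporter gene of NRF2 activity, had its strongest region in an intron at 2559 bp. Values were 34.3 and 47.1 in the controls and 89.7 and 63.6 under tazemetostat. Both treated libraries lay above both controls, with a wide spread within each group. The region rose by 0.89 ± 0.31 (SE, limma adjusted p = 0.0303), or 0.19 above the median of all regions. Its central 200 bp held no ARE or AP-1 letters.
The region spanning the NQO1 start (chr16:69726262-69726886), a promoter shared with the antisense transcript NQO1-DT, behaved otherwise. It read 36.1 in control replicate 2, 38.8 and 30.1 under tazemetostat, and had no peak in control replicate 1. The control lay between the treated libraries. Lengths were 624, 376 and 376 bp and local folds 4.13, 6.85 and 6.08. The peak of the control was thus longer and less dense, at 57.9 per kb against 103 and 80.1.

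TXNRD1, thioredoxin reductase, which keeps thioredoxin in its reduced form, was open at a downstream start cluster and hardly at its MANE start. At the MANE start (chr12:104215565-104215865) 1 library had a peak, tazemetostat replicate 1, at 7.05 with a length of 300 bp and a local fold of 5.26. At 71130 bp, which holds 10 annotated TXNRD1 starts, values were 19.2 and 21.8 in the controls and 34.8 and 32.8 under tazemetostat, with close replicates. The change of 0.70 ± 0.29 (SE) did not pass (limma adjusted p = 0.0576) and lay at the median of all regions. It passed with a pseudocount of 5 (limma adjusted p = 0.0469) and among regions with a mean tag count of at least 20 (limma adjusted p = 0.0466). A start cluster at 73050 bp read 14.3 in control replicate 2 and 23.7 and 15.1 under tazemetostat.

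In an intron of TXNRD1 at 107640 bp lay a region with its higher values in the controls. It read 11.1 and 14.7 in the controls, had no peak in tazemetostat replicate 1 and read 6.40 in tazemetostat replicate 2. The intervals were 6.65 to 17.3 and 10.2 to 20.5 in control replicates 1 and 2 and 3.73 to 10.2 in tazemetostat replicate 2 (95% exact Poisson, counting error only). Both control intervals overlapped the treated one, that of control replicate 2 barely. Lengths were 391 and 672 bp against 379 bp, and the density per kb was 28.4 and 21.9 against 16.9. Regions called in this pattern of libraries were 0.405% of all regions. The region was not tested, since 1 library has no value. The remaining 4 TXNRD1 regions were each called in 1 tazemetostat library, at 6.40 to 9.07.

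SRXN1, sulfiredoxin, which repairs overoxidised peroxiredoxins, had a promoter region just upstream of its start (chr20:653234-653654). It read 14.3 in control replicate 2 and 22.7 and 16.9 under tazemetostat, with no peak in control replicate 1. Lengths were 300, 380 and 300 bp and local folds 4.06, 4.70 and 4.12, all near the limit. The centre is shown because it holds AP-1 letters, in capitals.
SRXN1 promoter region, chr20:653345-653544, plus strand: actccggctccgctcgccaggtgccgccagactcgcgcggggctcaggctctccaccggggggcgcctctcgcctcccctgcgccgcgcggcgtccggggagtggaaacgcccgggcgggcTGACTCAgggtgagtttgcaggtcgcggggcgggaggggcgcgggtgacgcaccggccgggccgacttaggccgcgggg
Downstream of SRXN1 a tazemetostat-only region at 7618 bp read 23.2 and 19.6, and another at 11492 bp was called in tazemetostat replicate 2 alone, at 18.1. Both downstream peaks were near the limit too, with local folds of 4.06 to 4.27.

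OSGIN1, an oxidative stress-induced growth inhibitor, showed the second largest change by tag count of the member regions tested. The region, at -10115 bp in an intron of longer OSGIN1 transcripts and of MLYCD (chr16:83942886-83943364), had values of 15.7 and 16.8 in the controls and 40.3 and 37.3 under tazemetostat. Replicates were close and the groups far apart. It rose by 1.21 ± 0.29 (SE, limma adjusted p = 0.0103), or 0.51 above the median of all regions. The peaks lengthened from 300 bp in both controls to 454 and 459 bp. The density per kb went from 52.3 and 56.0 to 88.8 and 81.3, a change of 0.64 (limma adjusted p = 0.0200). Its centre is printed as the site of that change and holds no ARE or AP-1 letters. The region holds 2 looser ARE cores outside that centre, at -10332 and -9887 bases.
OSGIN1 intron region, chr16:83943026-83943225, plus strand: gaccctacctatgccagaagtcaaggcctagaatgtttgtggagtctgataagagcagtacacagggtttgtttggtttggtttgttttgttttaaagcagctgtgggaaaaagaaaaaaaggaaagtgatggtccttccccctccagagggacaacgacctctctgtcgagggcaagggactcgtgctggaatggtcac
A second intron region, at -14961 bp, was tazemetostat-only at 32.8 and 20. The region at the OSGIN1 start was called in tazemetostat replicate 1 alone, at 25.7, with a length of 300 bp and a local fold of 4.00, exactly at the limit.

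AKR1B10, an aldo-keto reductase often raised in hepatocellular carcinoma, was the one member with no peak in either control. The region at its start (chr7:134527229-134527719) read 10.1 (95% exact Poisson interval 6.16 to 15.6) and 13.9 (9.81 to 19.2) under tazemetostat. Lengths were 468 and 485 bp and local folds 7.35 and 7.84, higher than at most tazemetostat-only regions. The downstream region at 20102 bp read 11.6 and 11.3. No fold can be given where the controls have no value.

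AKR1C1, another aldo-keto reductase, which reduces steroids and lipid aldehydes, had a shared region at its start (chr10:4963098-4963693). Values were 12.8 and 10.1 in the controls and 23.2 and 22.2 under tazemetostat, without overlap. It rose by 0.94 ± 0.30 (SE, limma adjusted p = 0.0226). Peaks were 379 and 300 bp in the controls and 561 and 595 bp under tazemetostat, and the density per kb, at 33.8 and 33.7 against 41.4 and 37.3, did not pass (limma adjusted p = 0.409). The local folds ran the other way from the tags, at 19.4 and 14.1 in the controls and 11.7 and 10.6 under tazemetostat. Of the 50-base words of this region, 74.0% have an exact copy within the start region of the neighbouring paralog AKR1C2, so reads of both genes may be mixed and the value is uncertain.

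Upstream of AKR1C1 at -6274 bp lay the tazemetostat-only region with the full ARE printed above, at 9.07 and 7.53 and with local folds of 13.2 and 6.74. Over the last exon a region read 18.6 in control replicate 1 and 24.2 and 24.5 under tazemetostat. The remaining 4 AKR1C1 regions were called in 1 library each, 2 of them in a control, at 8.14 and 10.5.

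ME1, malic enzyme, a source of NADPH, had no region at its start in any library, although the full ARE letters lie at -133 bases. Its 2 regions were both far inside the gene. One at 138247 bp read 7.56 in control replicate 1 and 8.06 and 8.28 under tazemetostat, with high local folds of 15.6, 16.2 and 11.4. The other was called in tazemetostat replicate 2 alone, at 6.78.

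**Figure D2:**
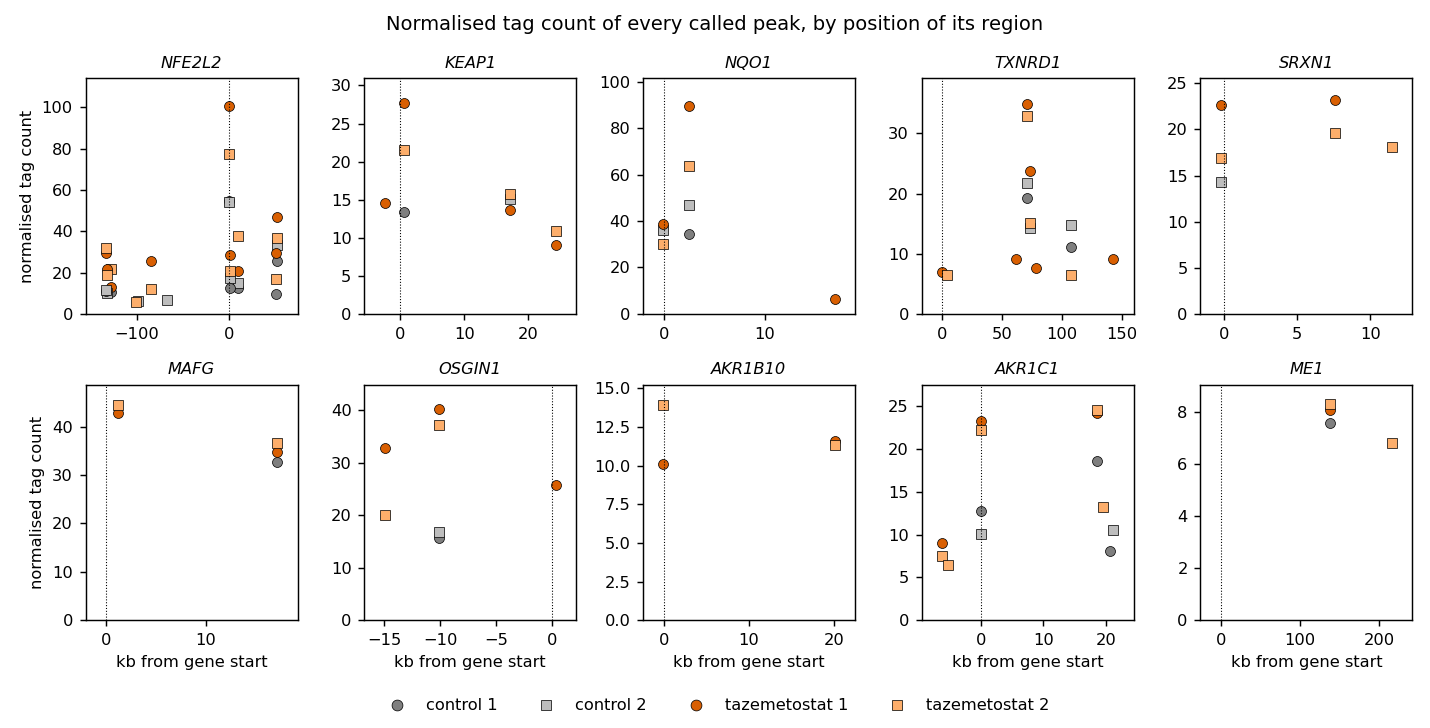
Each point is a called peak, placed by the distance of its region from the gene start in kb (x axis, dotted line at the start) and by its normalised tag count (y axis, scale differs between panels); grey is control and orange tazemetostat, circles replicate 1 and squares replicate 2. TXNRD1 has its highest points well inside the gene, not at the start, and ME1 has none at the start.

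Regions with 1 peak in every library were tested with limma on log2(normalised tag count + 1), which understates the change of low values, and p-values were adjusted over all 15383 such regions. All 9 shared member regions could be tested, 5 of them in the NFE2L2 window and 1 each at NQO1, TXNRD1, OSGIN1 and AKR1C1. Both tazemetostat values lay above both control values in 9 of 9, a pattern found in 81.6% of all regions tested. The test called 5 of 9 higher, against 42.7% of all regions, and 0 of 9 lower, against 0.247%. At unadjusted p under 0.05 the member counts were 8 and 0. Without control replicate 1 the test called 3 of 9 and without control replicate 2 it called 7, while 0 were called when either tazemetostat library was left out (6 and 4 at unadjusted p under 0.05, without replicates 2 and 1). The median change of the 9 was 0.89 and that of all regions was 0.70, so most of the rise was shared with the rest of the genome.

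**Figure D3:**
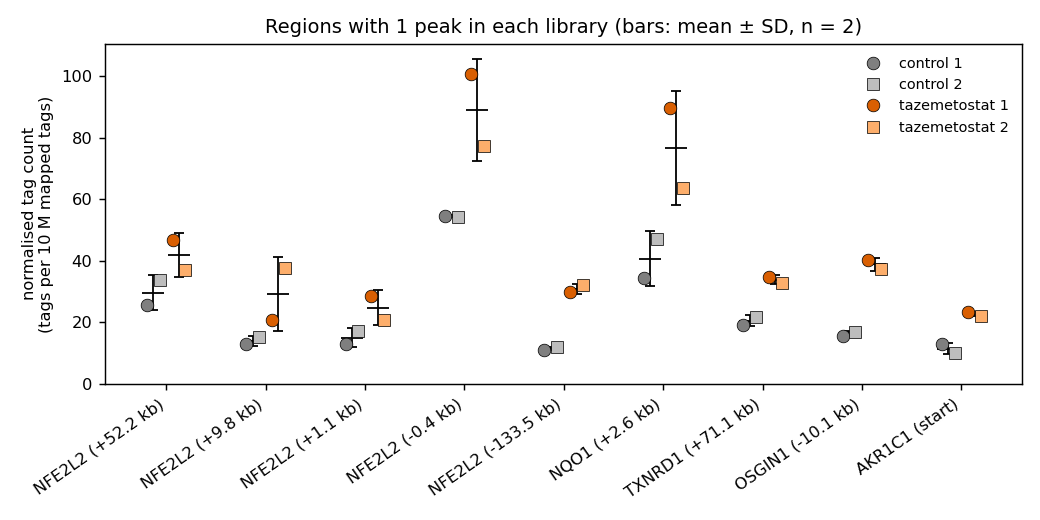
Points give the normalised tag count (y axis, tags per 10 M mapped tags) of the 9 tested regions (x axis, gene and distance from its start) in each library, with bars for mean ± SD (n = 2). Tazemetostat values lie above control values in all 9 regions, most clearly for the far upstream NFE2L2 region and the OSGIN1 intron region.

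After each library was centred on its own median, limma called 0 member regions in either direction, and 0% of all regions both ways. At unadjusted p under 0.05, 468 of all regions were higher and 1188 lower, with 1 and 0 among the members. The centred changes of the members ran from -0.27 at the HNRNPA3 promoter in the NFE2L2 window to 0.59 at the far upstream NFE2L2 region, with a median of 0.13 against -0.06 for all regions. That far upstream region was the one with an unadjusted p under 0.05 (0.0351, limma adjusted p = 0.414). The OSGIN1 intron region was next, at 0.45 (limma adjusted p = 0.535). The NFE2L2 start region turned to -0.07, its second start cluster to -0.08 and the TXNRD1 start cluster to -0.06. edgeR with TMM factors called 0 of 9 members, against 0.15% of all regions higher and 1.13% lower, with 1 member at unadjusted p under 0.05. DESeq2 called 0 as well, with 0 at unadjusted p under 0.05.

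**Figure D4:**
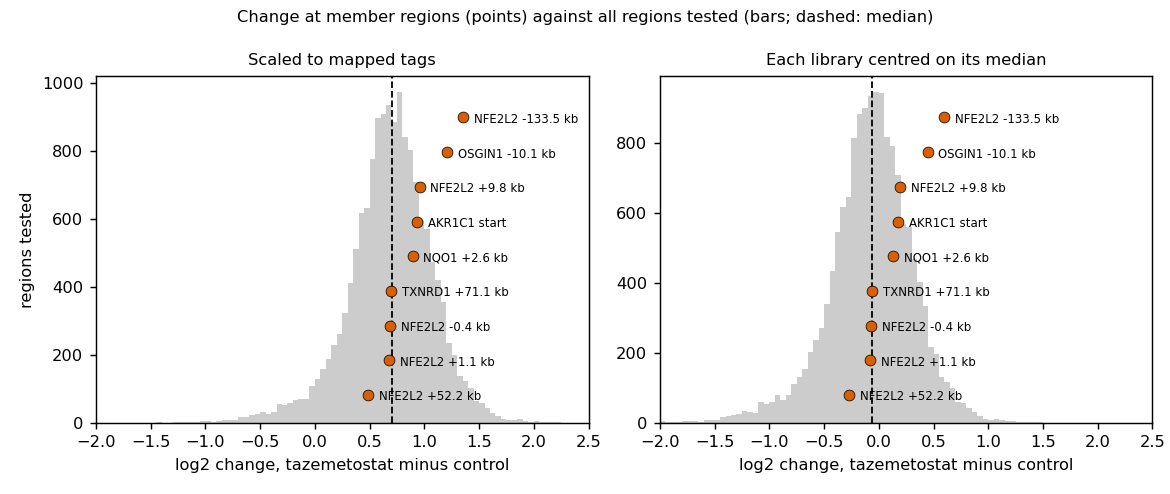
Grey bars count all regions tested (y axis) by their log2 change, tazemetostat minus control (x axis), with the median dashed, and orange points mark the 9 member regions at arbitrary heights. Scaled to mapped tags (left) all 9 changes are above 0 around a median of 0.70, and centred on each library's median (right) 5 of 9 are.

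The starts of 37 other genes of the pathway were read in the same way. Of these, 16 had a region at the start in all 4 libraries, 5 were tazemetostat-only, 0 were control-only, 9 had another pattern and 7 had none. For the 10 members the counts were 2, 2, 0, 5 and 1. The 2 tazemetostat-only ones were AKR1B10 and MAFG. The AKR1B10 region spans the start. That of MAFG is the intron region at 1175 bp, which reaches within 1 kb of the start by its edge and holds no annotated start. Over 19061 genes with a MANE Select start, 31.6% were shared, 5.83% tazemetostat-only and 0.0944% control-only, 22.1% had another pattern and 40.4% had none. The number of genes with a region at the start was 3 and 4 of 10 in the controls and 9 and 7 under tazemetostat for the members, and 18 and 23 of 37 against 28 and 27 for the others. Shares per library over all genes were not computed.

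Tazemetostat-only starts among the 37 came from several branches of the pathway. MAFF, a small MAF protein, read 19.1 and 13.6. GSR, glutathione reductase, read 35.8 and 21.5. BLVRA, biliverdin reductase, read 31.2 and 14.3. AKR1C3, a further aldo-keto reductase, read 7.05 and 7.91. Tazemetostat replicate 1 had the higher value at MAFF, GSR and BLVRA, and the lower one at AKR1C3.

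No region lay at the start of MAFK (a small MAF), SQSTM1 (which binds KEAP1), HMOX1 (haem oxygenase), FTL and FTH1 (ferritin), TKT (transketolase) or ABCC3 (an exporter). By branch, shared starts were 5 of 8 regulators, 4 of 6 glutathione genes, 1 of 2 thioredoxin genes, 0 of 6 haem and iron genes, 2 of 5 NADPH genes and 4 of 10 detoxification and export genes. Of the 37 starts, 15 could be tested. limma called 9 of the 15 higher and 0 lower, against 42.7% and 0.247% of all regions tested, and their median change was 0.82 against 0.70. After median centring it called 0 (0 at unadjusted p under 0.05 in either direction) and the median was 0.06, and edgeR with TMM factors called 0 (3 higher and 0 lower at unadjusted p under 0.05) and DESeq2 0 (0 at unadjusted p under 0.05).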

How the data were processed

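Per the labels and methods, the authors used Trim Galore 0.6.6 for trimming, Bowtie2 2.3.5.1 for alignment (hg38) and HOMER 4.11.1 for peaks, called per library without pooling. The file headers give a false discovery rate of 0.001 where the methods give 0.05, and do not state a shift of tags for the transposase. As a signal, the authors deposited normalised tag counts, in tags per 10 M mapped. A deposited score column, taken to be a tag count, was not used. The deposited ratio is the fold over the local background, used for filtering, and the clonal fold and the deposited p-value were not used.

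Multiplying the signal by mapped tags gave values within 0.25 of whole tags in 100% of peaks, summing to the tags in peaks of each header, and these tags entered edgeR and DESeq2. Intervals cover counting error only, since PCR reads without molecular identifiers are not independent molecules. The lowest tag count listed was 4.89 to 6.40 per library.

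Peaks overlapping by at least 1 bp were merged. limma 3.58.1 (no block) was the main test, adjusted by Benjamini-Hochberg at 0.05, and R 4.3.3 also ran the alternatives edgeR 4.0.16 (quasi-likelihood) and DESeq2 1.42.0. The study's own comparison needed tag directories, not used here. Promoters ran from 1000 bp upstream to 100 bp downstream of a start, and a start region lay within 1 kb of the MANE Select start. That definition was chosen after the peaks were seen, because annotated gene ends of NFE2L2 and others lie far from it. Exact copies were searched within 1 Mb of the genes only. Sequences came from hg38. Regions for motif shares were those on primary chromosomes (78220). The code was tested on simulated data. Members, gene lists and tests were chosen with earlier results of these data known. Named are all 10 members, with start regions in full and others where called in 1 group or strongest, and from the 37 other genes the starts past the threshold after rescaling, called in 1 group or absent. Where a few further regions are named, they were chosen after their values were seen. Same-numbered libraries did not deviate together (correlation -0.0025). Alternatives tried were stricter folds, equal peak numbers, other windows, overlaps, scalings, filters and pseudocounts, a replicate block and leaving out each library. Some items covered by the naming rule are not reported here.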

Additional observations from a re-analysis of the deposited data

How the results depend on the processing

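The higher mean peak number under tazemetostat kept its direction under every alternative tried, from 1.5 more peaks at a local fold of at least 8 to 23 with windows of 25 kb. Exact permutation p-values were 0.33 to 0.667 where a test could be run. At a local fold of at least 8 the controls had 3 and 1 peaks and the tazemetostat libraries 3 and 4. The groups thus no longer separated at that limit. Tazemetostat-only member regions numbered 8, but 0 of 6 at a local fold of at least 8, 3 of 31 when each library gave as many peaks, 5 with windows of 2 kb and 13 to 15 with a library left out, which relaxes the definition. Over all regions the tazemetostat-only share was 13.7%, and 13.3% at a local fold of at least 8 and 5.99% with equal numbers (9.68% of the member regions). Without control replicate 1 it was 31.1% of the member regions against 17.4% of all, and without control replicate 2 it was 30.2% against 26.0%. Without tazemetostat replicate 1 it was 35.9% against 36.4%, and without tazemetostat replicate 2 it was 37.5% against 37.2%. Control-only regions numbered 0, and 1 of 31 with equal numbers of peaks, against 1084 of 43185 over all regions. With a library left out they numbered 0 to 3. The 3 were among 45 member regions without control replicate 1, against 5750 of 75874 over all regions. Member regions called higher numbered 5, and 0 after median centring, with TMM factors and with DESeq2 size factors. Leaving out a library gave 0 to 7 calls: 3 without control replicate 1, 7 without control replicate 2, and 0 without tazemetostat replicate 1 or 2, where the lone library was assumed to vary like the other group. Of all regions, 0 were called when either tazemetostat library was left out as well. The other settings gave 5 to 7, and 0 were called lower throughout. Signs turned after median centring at the HNRNPA3 promoter (-0.27), the second NFE2L2 start cluster (-0.080), the NFE2L2 start (-0.074) and the TXNRD1 cluster (-0.063). With TMM factors they turned at the HNRNPA3 promoter (-0.23), the second cluster (-0.022) and the NFE2L2 start (-0.017), and with DESeq2 at those places too (-0.22, -0.012 and -0.021). The cause of the dependence on scaling was not tested.

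The replicate block left 5 member calls, and 5046 instead of 6569 regions called higher overall. Counts over all regions were 7455 higher and 52 lower with edgeR and header library sizes, 23 and 174 with TMM factors, 3 and 106 with DESeq2, 5063 and 40 per kb of peak, and 7515 and 42 with a pseudocount of 5. Replicate numbers did not pair the libraries, so the block says nothing of effect size. Depth and the local filter limit all statements on regions without a peak.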

Other observations

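The NFE2L2 window also took in open sites of its neighbours. A pair of regions lay at the promoter of HNRNPA3, which encodes an RNA-binding protein and starts downstream of NFE2L2. The stronger read 25.6 and 33.6 in the controls and 46.9 and 36.9 under tazemetostat. The change of 0.49 ± 0.30 (SE) did not pass (limma adjusted p = 0.162). Per kb of peak it passed (limma adjusted p = 0.0172). The weaker read 9.89 in control replicate 1 and 29.7 and 16.9 under tazemetostat, with no peak in control replicate 2. A region in an intron of AGPS, an enzyme of ether lipid synthesis, read 10.1 in control replicate 2 and 21.7 and 18.8 under tazemetostat. The start region of AKR1C2, the paralog that shares sequence with AKR1C1, read 9.31 and 10.9 without and 13.6 and 21.8 with tazemetostat. The change of 0.72 did not pass (limma adjusted p = 0.0614).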
